A study of Mus musculus and Homo sapiens with 4 samples.

Results

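The genes described here are 10 genes of the melanocyte lineage and of melanoma dedifferentiation, chosen by name: MITF, SOX10, SOX9, PAX3, TYR, DCT, PMEL, MLANA, AXL and NGFR. All probe sets with one of these names were taken. They numbered 20 for 9 genes on the human array, of 54675 probe sets and 19773 named genes, and 22 for 10 genes on the mouse array, of 45101 probe sets and 18193 named genes. Human DCT was not analysed here. The study hybridised 4 Affymetrix arrays, with 1 stably infected cell line on each. These were A375M human melanoma cells carrying the retroviral vector pSIREN-RetroQ with a short hairpin RNA against human Merm1/Wbscr22, A375M cells carrying the control pSIREN-RetroQ vector, LM8 murine osteosarcoma cells carrying the vector against mouse Merm1/Wbscr22, and LM8 cells carrying the control vector. Merm1/Wbscr22 is now named BUD23 and encodes a methyltransferase of ribosomal RNA. All groups therefore carry a pSIREN-RetroQ vector, and no label says whether a line is a clone or a pool. LM8, a bone tumour line, served as a contrast without melanocyte identity.

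Melanocytes arise from the neural crest, where the paired-box factor PAX3 and the HMG-box factor SOX10 switch on MITF, the basic helix-loop-helix regulator of the pigment cell lineage. MITF binds an extended E-box called the M-box in the promoters of pigment genes such as TYR and DCT, and cyclic AMP signalling raises transcription from the melanocyte promoter of MITF through a cAMP response element. Melanoma cells can lose pigment gene expression, and cells in such dedifferentiated states are known for high levels of the receptor tyrosine kinase AXL, the nerve growth factor receptor NGFR or SOX9.

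The mouse promoters of Tyr, Dct and Mitf show these elements in the sequence itself. Each line gives the 250 bases upstream of the annotated start in assembly GRCm38.p6, 5′ to 3′ on the strand of the gene, from RefSeq. Tyr lies on the minus strand (chr7:87493513-87493762), Dct on the minus strand (chr14:118052247-118052496) and the Mitf start shown, the most downstream of 3 in the table, on the plus strand (chr6:97991533-97991782). Capitals mark the M-box core TCATGTG, or its reverse complement CACATGA, in Tyr and Dct and the cAMP response element TGACGTCA in Mitf.
Tyr: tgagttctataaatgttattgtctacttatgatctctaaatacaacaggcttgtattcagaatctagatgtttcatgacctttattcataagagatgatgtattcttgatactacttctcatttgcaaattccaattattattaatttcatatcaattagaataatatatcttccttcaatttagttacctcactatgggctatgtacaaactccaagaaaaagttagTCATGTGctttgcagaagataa
Dct: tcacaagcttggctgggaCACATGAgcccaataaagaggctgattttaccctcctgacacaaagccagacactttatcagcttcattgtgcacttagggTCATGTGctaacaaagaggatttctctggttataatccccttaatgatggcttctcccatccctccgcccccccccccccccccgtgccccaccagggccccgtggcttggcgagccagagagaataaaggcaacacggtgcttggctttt
Mitf: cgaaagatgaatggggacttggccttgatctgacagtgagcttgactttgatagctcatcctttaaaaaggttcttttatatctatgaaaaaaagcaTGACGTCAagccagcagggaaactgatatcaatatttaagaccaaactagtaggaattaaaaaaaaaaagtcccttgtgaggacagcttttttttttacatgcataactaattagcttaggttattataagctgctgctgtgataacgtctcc
Both strands were searched and the motifs do not overlap. TCATGTG began 22 bases before the Tyr start and 151 bases before the Dct start, and Dct held a further match on the other strand beginning 232 bases before it. The element in Mitf began 153 bases before its start. Windows were found for 5 of the 10 genes, the others being Axl and Ngfr, and neither of these nor the 3 Mitf windows held TCATGTG. Among all 32851 windows of this length 3.25% held TCATGTG and 1.55% held TGACGTCA. Of 40 windows from 28 other pigment and MITF target genes 6 (15%) held TCATGTG, each of a different gene, among them Tyrp1, Mc1r and Trpm1. A match is a description of these letters and no evidence of binding.

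Values are log2 RMA expression values, and every difference is the knock-down value minus the control value within a line. Each group was a single array, so nothing here could be tested against replicates, and the small number of arrays limits how precise any difference is. The target gene checked the labels: BUD23 read 8.38 in A375M knock-down cells against 10.70 in A375M control cells, and Bud23 read 8.48 in LM8 knock-down cells against 10.61 in LM8 control cells. As a gauge of technical spread, the SD of the difference between probe sets of a gene had a median of 0.071 in A375M and 0.12 in LM8, which leaves out the spread between cultures. Only probe sets above the array median in at least 1 array of the line entered it, those with identical values included. Knock-down and control values were exactly equal in 45.4% of the non-control probe sets in A375M and in 0.706% in LM8. The same held for 8 of the 20 human member probe sets (40%) and for 0 of the 22 mouse ones, so a human difference of exactly 0 is a property of the deposited values and no measurement of equality. A gene was kept when its brightest probe set lay above the array median in at least 1 array of the line. Of the members 9 of 9 were kept in A375M and 5 of 10 in LM8, and the kept genes numbered 13244 of 19773 and 11646 of 18193 named genes.

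In A375M knock-down cells none of the 9 members was 1.5-fold away from its level in control cells. The differences of the brightest probe sets ran between -0.10 for SOX10 and 0.35 for MLANA, where 1.5-fold is 0.58. Among all kept genes 0.378% were at least 1.5-fold higher and 0.37% at least 1.5-fold lower, so counts of 0 among 9 members are near the background. At 2-fold, which no member reached, 0.0831% of kept genes were higher and 0.0453% lower. Of the 9 members 4 were higher, 2 lower and 3 identical, with a median difference of 0, the same as the median of 0 over all kept genes.

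**Figure D1:**
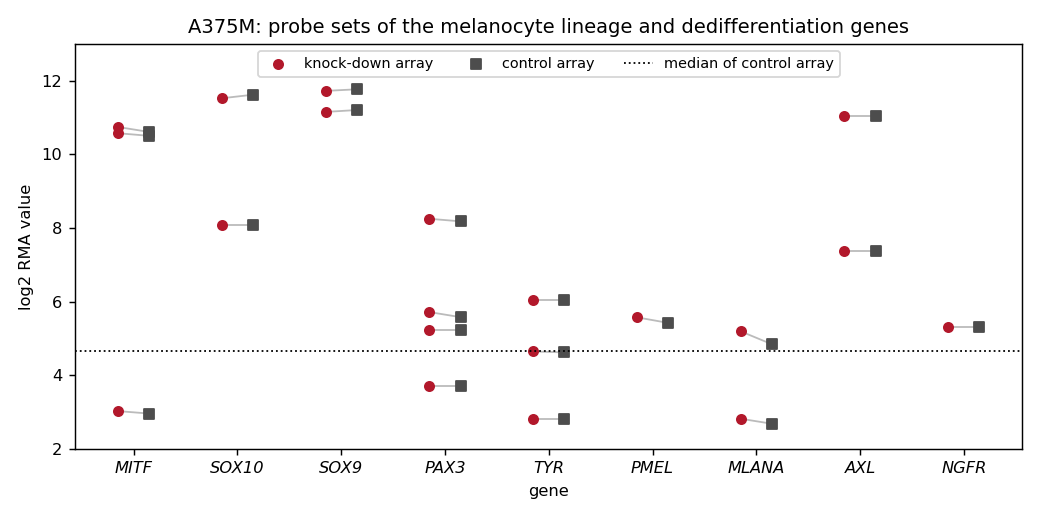
Log2 RMA value (y) of every probe set of the 9 named genes (x) in the A375M knock-down array (red circles) and control array (grey squares), with a line joining the arrays for each probe set and the control array median dotted. The pairs lie almost level, and the steepest line is that of the brighter MLANA probe set, at 5.19 in the knock-down array and 4.84 in the control array.

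Transcription factor genes of the lineage each had at least 1 probe set well above the median of both A375M arrays. MITF read 10.74 in knock-down cells and 10.61 in control cells on its brightest probe set, a difference of 0.14 or 1.10-fold. Its other bright probe set read 10.58 in knock-down cells and 10.50 in control cells, and a dim one, below the array median, read 3.02 in knock-down cells and 2.96 in control cells. All 3 MITF probe sets were therefore slightly higher in knock-down cells, by 0.067 to 0.14, and 23.4% of kept genes had a difference of at least the size seen on the brightest. SOX10, which acts upstream of MITF and of DCT, read 11.53 in knock-down cells and 11.62 in control cells, a difference of -0.10. The second SOX10 probe set read 8.08 in both arrays. SOX9, a related HMG-box factor known from cartilage and from dedifferentiated melanoma, read 11.73 in knock-down cells and 11.77 in control cells, and its second probe set 11.15 in knock-down cells and 11.21 in control cells. Both SOX9 differences (-0.043 and -0.052) were smaller than the spread between probe sets. PAX3, an activator of MITF, read 8.25 in knock-down cells and 8.18 in control cells on the brightest of 4 probe sets, a difference of 0.070. A second PAX3 probe set read 5.71 in knock-down cells and 5.58 in control cells, and the remaining ones were identical at 5.23 and 3.71. Differences of the factors were small and of both signs, with MITF and PAX3 higher or identical and SOX10 and SOX9 lower or identical on every probe set. On the brightest probe sets MITF was higher and SOX10 lower by more than the spread between probe sets.

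The pigment cell products among the members, MLANA, PMEL and TYR, showed no lower value in A375M knock-down cells on any probe set. Pigment genes outside the members differed in both directions, with OCA2 at -0.34 and SLC45A2 at 0.25. MLANA, a melanosome protein recognised by T cells as the antigen Melan-A, read 5.19 in knock-down cells and 4.84 in control cells, a difference of 0.35 or 1.27-fold, and 3.84% of kept genes had a difference of at least this size. Its other probe set, below the array median of 4.67 in the knock-down array and 4.64 in the control array, read 2.82 in knock-down cells and 2.68 in control cells, a difference of 0.14. PMEL, which forms the fibrils on which melanin is laid down, read 5.57 in knock-down cells and 5.42 in control cells on its only probe set, a difference of 0.15. TYR, the rate-limiting enzyme of melanin synthesis, read 6.04 in both arrays on its brightest probe set. Another TYR probe set read 4.64 in knock-down cells and 4.62 in control cells, and the third read 2.82 in both. The brighter MLANA probe set and the PMEL probe set were thus higher in knock-down cells by more than the spread between probe sets. Of all 13244 kept genes 2125 were also higher by more than that, and 3313 lower. The difference of the dim MLANA probe set was larger than that spread too, but the spread was taken over probe sets above the array median. The brighter MLANA probe set and the PMEL probe set lay not far above the array median, and the other MLANA probe set at the 16.3 percentile of the knock-down array and the 12.2 percentile of the control array. The control value of the PMEL probe set occurred in 158 probe sets, that of the dim MLANA probe set in 389 and that of the brightest TYR probe set in 77, whereas the value of the brighter MLANA probe set occurred once. With 32 added to the linear values, which damps dim signals, the MLANA difference was 0.18, and on the probe set not marked by _x_at or _s_at, endings that stand for probes shared between transcripts, it was 0.14.

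Receptors of the dedifferentiated state gave identical values. AXL, the receptor for GAS6, read 11.04 in both A375M arrays on one probe set and 7.38 in both on the other. NGFR, the low-affinity neurotrophin receptor of neural crest cells, read 5.32 in both arrays on its only probe set. The AXL value of 11.04 occurred in no other probe set of the control array, while 7.38 occurred in 27 and the NGFR value in 31. No difference of these receptors could be read from the deposited values.

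**Figure D2:**
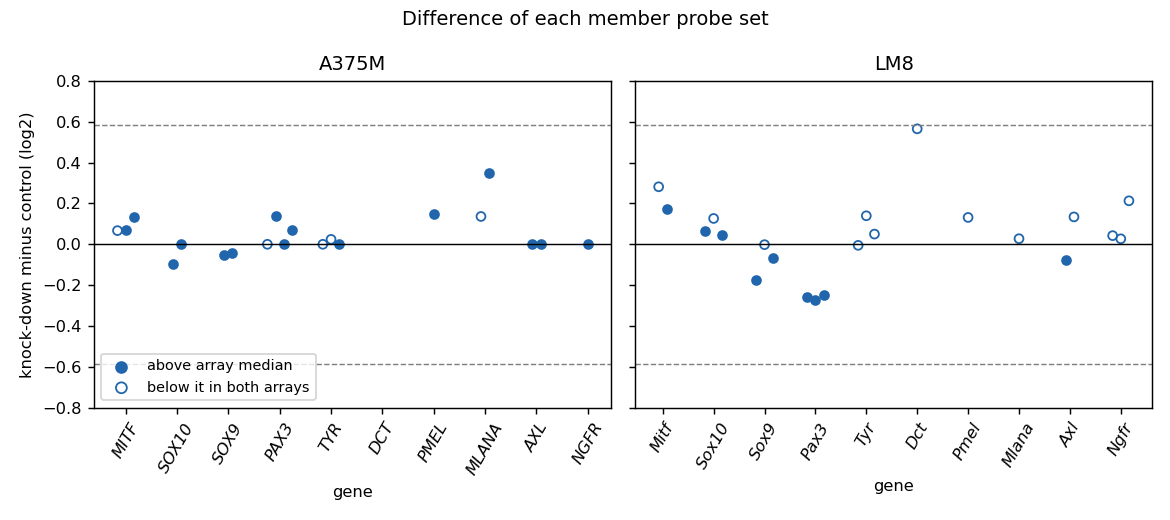
Knock-down minus control (y, log2) for every probe set of the members (x) in A375M (left) and LM8 (right), filled where the probe set lay above the array median in at least 1 array and open where it lay below it in both, with dashed lines at 1.5-fold. All points lie inside the lines, the highest being the open point of Dct in LM8 at 0.57, and the 3 Pax3 points in LM8 lie together between -0.27 and -0.25.

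In LM8 knock-down cells none of the 5 kept members was 1.5-fold away from its level in control cells either. At that size 1.16% of kept genes were higher and 1.31% lower, so 0 of 5 is near the background. At 2-fold, again with no member, 0.155% were higher and 0.318% lower. Of the 5 kept members 2 were higher and 3 lower, with a median of -0.067, beside a median of 0.015 over all kept genes. Of the 22 probe sets 14 were higher and 8 lower, and 13 lay below the array median in both arrays.

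Pax3 had the largest difference of the members kept in LM8 and also read well above the middle of the array in this bone tumour line. Its probe sets read 10.12, 9.63 and 9.56 in knock-down cells, against 10.37, 9.90 and 9.82 in control cells. The knock-down array was lower on all 3, by 0.25, 0.27 and 0.26 on the log2 scale, and the brightest was 1.19-fold lower. These differences exceeded the spread between probe sets of 0.12, and 18.0% of kept genes had a difference of at least the size of the brightest. Mitf read 7.99 in knock-down cells and 7.82 in control cells, a difference of 0.17, and its dim probe set read 3.75 in knock-down cells and 3.47 in control cells. Both Mitf probe sets were higher in knock-down cells, as all 3 were in A375M, although the lines differ in species and array. In each line 1 of these probe sets was dim. In LM8 31.5% of kept genes had a difference of at least the size of the brighter one. Sox9, a regulator of cartilage and bone progenitors, read 8.14 and 7.33 in knock-down cells, against 8.20 and 7.51 in control cells, and a dim probe set read 3.55 in both arrays after rounding. Sox10 read 6.06, 6.02 and 4.74 in knock-down cells, against 6.02, 5.96 and 4.61 in control cells. Its values were higher on all 3 probe sets by 0.046 to 0.13, and the smallest was that of the brightest. Axl read 7.53 in knock-down cells and 7.61 in control cells, a difference of -0.077, while a dim probe set differed by 0.13.

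The pigment genes and Ngfr lay below the array median in both LM8 arrays and were not kept. Dct, a melanin synthesis enzyme also called dopachrome tautomerase, read 4.75 in knock-down cells and 4.18 in control cells on its only probe set, below the medians of 5.28 and 5.29. The difference of 0.57, or 1.48-fold, was the largest of any member, and with 32 added to the linear values it was 0.23. Pmel read 4.95 in knock-down cells and 4.82 in control cells, and Mlana 3.56 in knock-down cells and 3.53 in control cells. Tyr read 3.53, 3.06 and 2.79 in knock-down cells, against 3.53, 2.92 and 2.74 in control cells. Ngfr read 5.24, 4.04 and 3.50 in knock-down cells, against 5.03, 4.00 and 3.48 in control cells, and the mean over its probe sets differed by 0.094. At these levels the arrays give little signal over background, and a difference of such genes is imprecise.

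**Figure D3:**
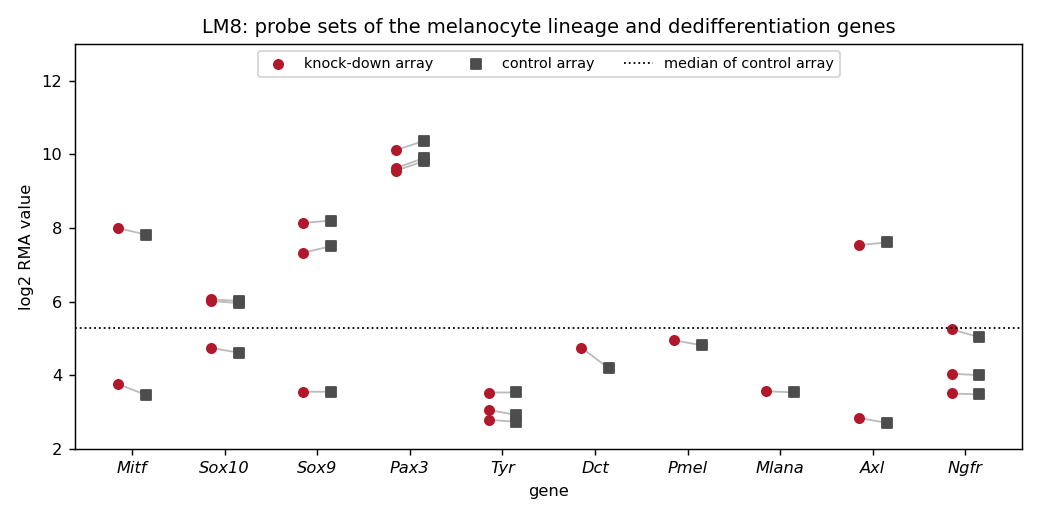
Log2 RMA value (y) of every probe set of the 10 mouse genes (x) in the LM8 knock-down array (red circles) and control array (grey squares), with a line joining the arrays for each probe set and the control array median dotted. The 3 Pax3 pairs lie between 9.56 and 10.12 in the knock-down array and between 9.82 and 10.37 in the control array, and all Tyr, Dct, Pmel, Mlana and Ngfr pairs lie under the dotted line.

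Percentiles within each array describe which members read above the middle of their platform. Hybridisation differs between probe sets and the human and mouse arrays are different designs, so the percentiles order neither genes nor lines. In A375M 9 of 9 members lay above the array median in both arrays, and in LM8 5 of 10 did. The brightest probe set stood for each gene, which raises such shares for any list. By the looser rule of at least 1 array the members gave the same counts, 9 of 9 and 5 of 10. By that looser rule 13244 of 19773 named genes in A375M lay above the median, and 11646 of 18193 in LM8. MITF stood at 97.1 in A375M knock-down cells and 96.7 in A375M control cells, and at 74.4 in LM8 knock-down cells and 73.0 in LM8 control cells. PAX3 stood at 85.5 in A375M knock-down cells and 84.6 in A375M control cells, and Pax3 at 90.3 in LM8 knock-down cells and 91.7 in LM8 control cells. MLANA stood at 57.0 in A375M knock-down cells and 52.5 in A375M control cells, close to the middle of the array. With the filter set at the 70th percentile 5 of 9 members were kept in A375M, namely MITF, SOX10, SOX9, PAX3 and AXL. Of 11 melanocyte markers 9 of the 10 named on the human array lay above the median in both A375M arrays, GPR143 being the exception, and 3 of 11 did so in LM8, namely Mitf, Sox10 and Pax3. Osteoblast markers lay above the median in 7 of 7 cases in LM8 and in 5 of 9 in A375M. The share above the median also reached 5 of 5 for Schwann and glial markers and 5 of 6 for fibroblast markers in A375M, so it does not single out melanocytes. It was 1 of 5 for keratinocyte, 3 of 4 for leukocyte and 3 of 5 for endothelial markers in A375M. In LM8 it was 4 of 6 for Schwann and glial, 5 of 6 for fibroblast, 1 of 4 for keratinocyte, 0 of 4 for leukocyte and 2 of 5 for endothelial markers.

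**Figure D4:**
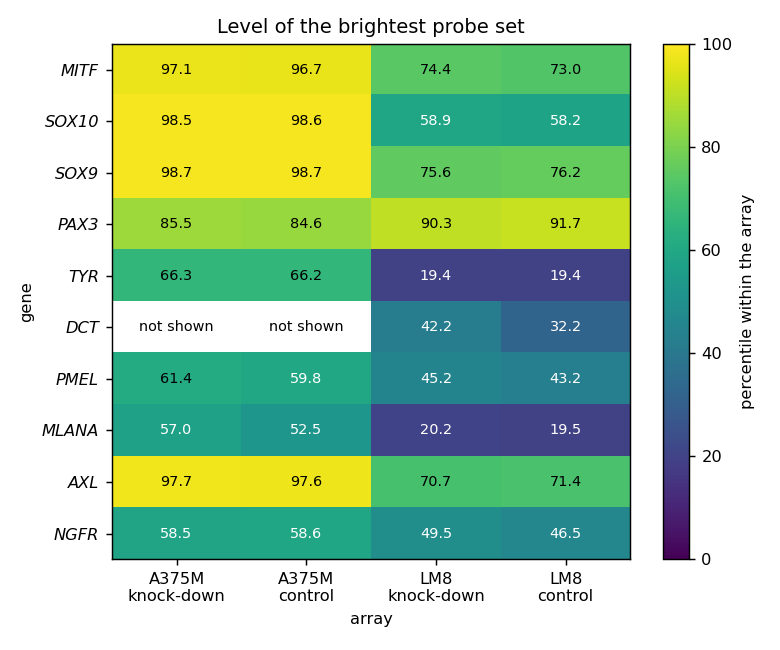
Percentile of the brightest probe set of each member (rows) among the non-control probe sets of each array (columns, knock-down left of control within a line), from 0 (dark) to 100 (light). Within a line the columns differ most for Dct in LM8, at 42.2 in the knock-down array and 32.2 in the control array, and Tyr, Dct, Pmel, Mlana and Ngfr lie below 50 in both LM8 arrays.

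Other genes of pigment production and MITF targets also stayed within 1.5-fold in A375M. Of 29 kept genes 13 were higher, 13 lower and 3 identical, with a median of 0 and none past 1.5-fold. The largest differences were those of APOE, a lipid carrier gene, which read 9.15 in knock-down cells and 8.59 in control cells (0.56, and 0.34 to 0.67 over 3 probe sets), MYO5A, the myosin that carries melanosomes, which read 8.85 in knock-down cells and 9.25 in control cells (-0.40), and BCAN, a brain proteoglycan gene, at 6.87 in knock-down cells and 7.24 in control cells (-0.37). The 3 kept MYO5A probe sets were all lower, between -0.56 and -0.27, and a dim one below the array median was higher by 0.43, while a second kept BCAN probe set differed by 0.093. In LM8 16 of 32 named genes of this list were kept, 9 higher and 7 lower, with a median of 0.055. S100b, a calcium-binding protein gene of glia and melanocytes, read 9.01 in LM8 knock-down cells and 8.28 in LM8 control cells, a difference of 0.73, and its other probe set differed by 0.91. Gpm6b, a membrane glycoprotein gene of the nervous system, read 9.16 in LM8 knock-down cells and 8.48 in LM8 control cells, a difference of 0.68. Mlip, a lamin-interacting protein gene, was lower at 4.52 in LM8 knock-down cells, under the array median, and 5.37 in LM8 control cells. It was kept only through the control array, in which it was higher, so its place in the count depends on the difference itself. These were the 3 genes of the 16 past 1.5-fold in LM8, 2 higher and 1 lower, beside 1.16% higher and 1.31% lower over all kept genes.

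Genes of melanosome assembly and transport included 3 that were just past 1.5-fold lower in A375M knock-down cells. Of 24 kept genes 14 were lower, 3 higher and 7 identical, with a median of -0.029. Over all 13244 kept genes 0.37% were past 1.5-fold lower, 5334 were lower and 3835 higher. OSTM1, the gene of a lysosomal chloride transport subunit whose loss gives grey fur in mice, read 9.35 in knock-down cells and 9.96 in control cells, 1.52-fold lower, and all 4 of its probe sets were lower, between -0.73 and -0.49. MREG, which encodes melanoregulin, an organelle transport factor, read 7.68 in knock-down cells and 8.28 in control cells, 1.51-fold lower, with a second probe set at -0.39. SYTL2, an effector of the small GTPase RAB27A, read 8.15 in knock-down cells and 8.74 in control cells, 1.51-fold lower, with another kept probe set at -0.55 and a dim one, below the array median, at 0.18. The 3 genes lie close to the threshold, and the count of lower genes over all lists was 0 after repeated quantile normalization and 1 after removal of a loess curve. The list was chosen with earlier results of these data known, so its count beside the share over all kept genes is a description only. In LM8 none of 22 kept genes of the list was past 1.5-fold, 14 being higher and 8 lower, with a median of 0.054. The largest were Hps5 (0.31) and Vps33a (0.30), genes of organelle trafficking complexes, and Ap3d1 (0.25), an adaptor subunit gene.

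Neural crest factors gave 1 of 20 kept genes past 1.5-fold in A375M, a higher one, and 1 of 15 in LM8, a lower one, beside 0.378% higher and 1.31% lower over all kept genes of those lines. NR2F1, a nuclear receptor gene, read 5.15 in A375M knock-down cells and 4.20 in A375M control cells, a difference of 0.95 on its only probe set, with the control value under the array median. It was kept only through the array in which it was higher, so its place in the count depends on the difference itself. Over 20 kept genes 11 were higher, 5 lower and 4 identical, with a median of 0.0033. In LM8 Sox6, an HMG-box factor of cartilage development, read 7.80 in knock-down cells and 8.55 in control cells, 1.69-fold lower, and all 4 of its probe sets were lower, between -0.82 and -0.41. SOX6 in A375M, named after its values were seen, read 6.64 in knock-down cells and 7.17 in control cells, 1.45-fold lower. Its kept probe sets there ran from -0.59 to 0.19. Of 15 kept neural crest factors in LM8 6 were higher and 9 lower, with a median of -0.013.

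The MITF family and its upstream regulators held no gene past 1.5-fold in either line. In A375M 7 of 13 kept genes were lower, 2 higher and 4 identical, with a median of -0.033. CREB1, which binds cAMP response elements such as that printed for Mitf, read 8.65 in knock-down cells and 8.80 in control cells, and its 7 kept probe sets ran from -0.28 to 0. EDNRB, the endothelin receptor of melanoblasts, read 11.65 in knock-down cells and 11.79 in control cells, and KITLG, the ligand of KIT, 7.48 in knock-down cells and 7.56 in control cells. In LM8 6 of 10 kept genes were higher and 4 lower, with a median of 0.0058. The largest differences there were those of the endothelin gene Edn3 (-0.38), the deacetylase gene Sirt1 (0.28) and the repressor gene Zeb2 (-0.28), and the kept Edn3 and Zeb2 probe sets were of both signs.

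Genes of the undifferentiated and invasive melanoma state had none past 1.5-fold in A375M. Of 26 kept genes 17 were lower, 3 higher and 6 identical, with a median of -0.034, smaller than the spread between probe sets of 0.071. Of all 13244 kept genes 5334 were lower and 3835 higher. The median was -0.0030 after repeated quantile normalization and -0.064 after each array was centred on its median. NT5E, an ectonucleotidase gene, read 9.19 in knock-down cells and 9.62 in control cells (-0.44), with all 4 probe sets lower. CAV1, the caveolin gene, read 10.11 in knock-down cells and 10.52 in control cells (-0.41), with both probe sets lower. WNT5A, a ligand of non-canonical WNT signalling linked to melanoma invasion, read 10.29 in knock-down cells and 10.57 in control cells (-0.28), and its other probe set differed by -0.55. In LM8 13 of 23 kept genes were higher and 10 lower, with a median of 0.031. Zeb1, a mesenchymal transcription factor gene, read 8.69 in LM8 knock-down cells and 7.95 in LM8 control cells, 1.66-fold higher, while its other kept probe set differed by 0.26. Pdgfc, a growth factor gene, read 9.70 in LM8 knock-down cells and 10.46 in LM8 control cells, 1.70-fold lower. Dkk1, a secreted WNT inhibitor gene, read 4.67 in LM8 knock-down cells, under the array median, and 5.60 in LM8 control cells. Like Mlip, it was kept only through the control array, in which it was higher. These were the 3 genes of the 23 past 1.5-fold in LM8, 1 higher and 2 lower, beside 1.16% higher and 1.31% lower over all kept genes.

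Relatives and ligands of AXL and NGFR were measured beside the receptors. In A375M TYRO3, a receptor of the AXL family, read 8.22 in knock-down cells and 8.42 in control cells (-0.19), with its other probe set identical in both arrays. The ligand gene GAS6 read 7.81 in both arrays and the ligand gene PROS1 9.35 in both after rounding, while MERTK, the third receptor, lay below the array median. In LM8 Pros1 read 9.05 in knock-down cells and 8.49 in control cells (0.56), and Mertk read 7.85 in knock-down cells and 7.34 in control cells (0.51), both with 1 probe set and under 1.5-fold. Gas6 differed by -0.10 and Tyro3 by -0.030 in LM8, where the other kept Tyro3 probe set differed by 0.16. Among NGFR ligands and partners in A375M BEX3, whose product binds the receptor, differed by 0.083 and MAGED1, another binding partner gene, by -0.046. The brightest probe sets of BDNF, NTRK3 and LINGO1 were identical in both A375M arrays, and NTRK2, SORCS2 and RTN4R lay below the array median. Kept probe sets ran from 0 to 0.42 for BDNF and from -0.053 to 0 for NTRK3. In LM8 Bex3 differed by -0.19, Maged1 by 0.14, Lingo1 by 0.35, Ntrk2 by -0.15, Rtn4r by 0.086 and the co-receptor gene Sort1 by 0.062. Kept probe sets were of both signs for Lingo1 (-0.037 to 0.35), Ntrk2 (-0.15 to 0.021) and Sort1 (-0.32 to 0.062). Bdnf, Ntrk3 and Sorcs2 lay below the LM8 array median.

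**Figure D5:**
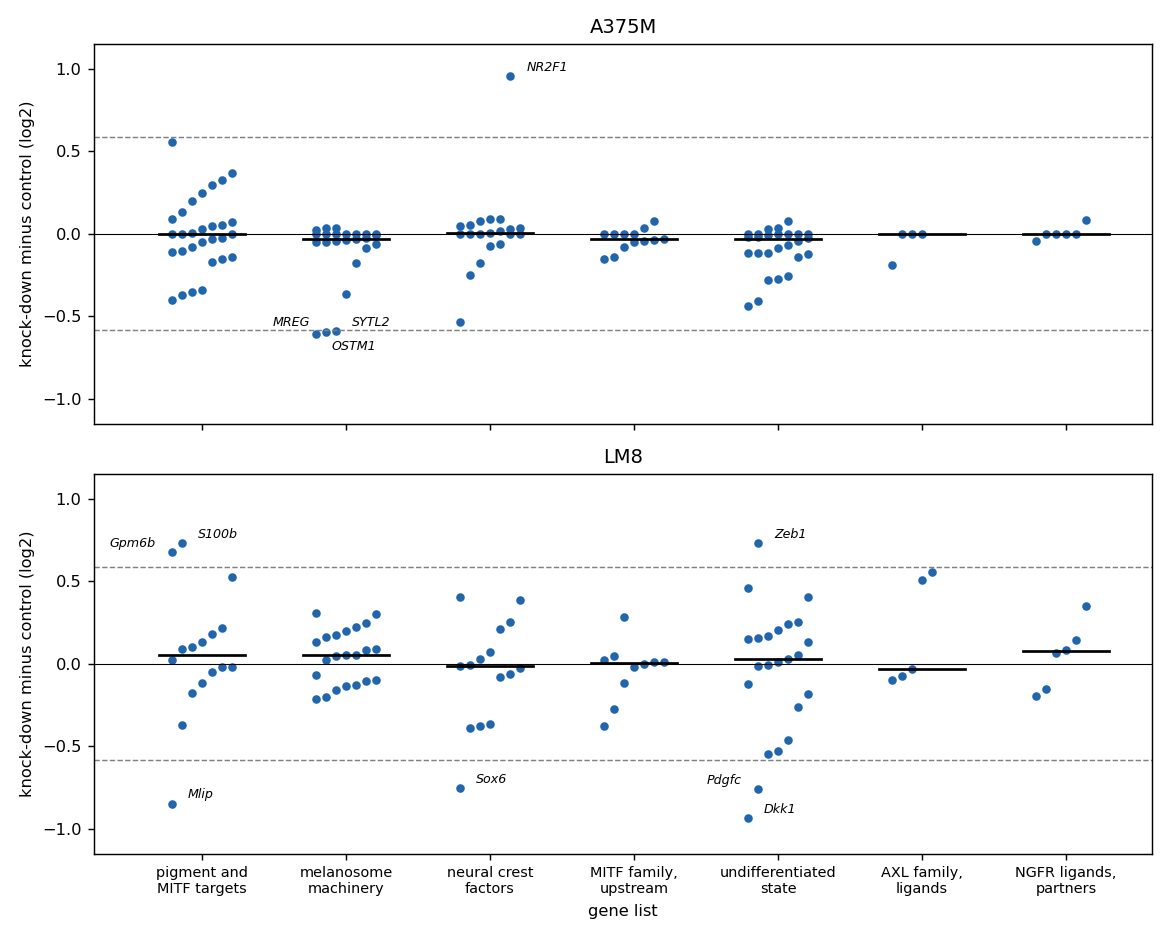
Knock-down minus control (y, log2) of the kept genes of 7 lists (x) in A375M (top) and LM8 (bottom), one point per gene with its list median as a black bar and dashed lines at 1.5-fold. Named points lie past 1.5-fold, which are NR2F1, OSTM1, MREG and SYTL2 in A375M and S100b, Gpm6b, Zeb1, Mlip, Sox6, Dkk1 and Pdgfc in LM8.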

How the data were processed

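Total RNA from the 4 lines was hybridised as biotinylated cRNA, and the titles of the samples gave the groups. The authors deposited a log2 expression value for each probe set, and the submitters' processing notes name RMA without a version. Sorted values of the arrays of a line differed by at most 0.075 in A375M and 0.064 in LM8, so a shift of all genes at once cannot be detected. The software, the probe annotation used and the step that gave identical human values are not given in the sources used here.

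Probe sets were named from the platform annotation supplied with the tables, without regard to case, with older symbols for list members and RefSeq synonyms in mouse. On the human array 41091 of 54613 non-control probe sets had 1 symbol, 1801 several and 11721 none, and on the mouse array 34945, 932 and 9160 of 45037. Only the first kind was used to name genes, and the brightest probe set stood for its gene. Differences were computed in Python 3.11.15 with pandas 2.3.3 and counted at 1.5-fold and 2-fold, with no test, and the scripts were tested on simulated data. The members, the 7 other lists and the markers were chosen with earlier results of these data known. Named genes were the members, BUD23, the list genes past 1.5-fold or otherwise the 3 with the largest differences, and the AXL and NGFR partners. Alternatives were 2 other filters, 3 scalings, 2 gene representations, a pseudocount and the 2-fold threshold.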

Additional observations from a re-analysis of the deposited data

Results flagged for a closer look

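Of the 91 list genes kept in both lines 10 differed in opposite directions, each by more than the spread between probe sets of its line. Among all 13244 kept genes in A375M 2125 were higher and 3313 lower by more than that spread. In LM8 3054 were higher and 2497 lower of 11646. Passing the spread was therefore common, the share of opposite genes over all genes was not computed, and the difference between the lines was not tested. The rule for named genes covers 3 of them. MYO5A differed by -0.40 in A375M, where a dim probe set differed by 0.43, and by 0.18 in LM8. HPS5 differed by -0.37 in A375M and 0.31 in LM8, and BEX3 by 0.083 in A375M and -0.19 in LM8. Among the others, named after their values were seen, ETS1 differed by -0.25 in A375M and 0.41 in LM8, with probe sets of both signs in each line, and LYST by -0.18 in A375M and 0.17 in LM8. No member of the lineage list met this description, but PAX3 lay at its edge. It differed by 0.070 in A375M, just under the spread of 0.071, and by -0.25 in LM8. The A375M difference of PAX3 was 0.12 after repeated quantile normalization and 0.083 after removal of a loess curve, both past that spread. It was under the spread at 0.040 with the arrays centred on their medians, 0.052 with the mean of probe sets and 0.063 with 32 added. Of its 4 A375M probe sets 2 were identical in both arrays.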

How the results depend on the processing

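No paired analysis was possible because each line had 1 array per group. No member passed 1.5-fold in either line under any of the 9 alternatives run, and the median over kept members moved by less than the spread between probe sets in each, although its sign in LM8 turned without the filter on low values (0.037 over 10 members, against -0.067 over 5). Among the single members the MLANA difference in A375M was 0.24 with the mean of its probe sets. When probe sets ending in _x_at or _s_at were left out, 5 of 6 represented members, in place of 9 of 9, lay above the A375M array median. Over the other lists in A375M the count of genes at least 1.5-fold higher was 1, and it was 2 after repeated quantile normalization, and 0 at 2-fold, with 32 added, and under the stricter 70th percentile filter. The count at least 1.5-fold lower was 3 in A375M, and it was 1 after loess removal or with the mean of probe sets, and 0 after repeated quantile normalization, with 32 added and at 2-fold. In LM8 the 3 higher genes became 0 at 2-fold, and the 4 lower genes became 2 with the filter at the 70th percentile or 32 added and 0 at 2-fold. The cause of these moves was not tested beyond the construction of each alternative. Differences of dim probe sets are limited by signal over background.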

Other observations

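Values in both lines are given here for 3 list genes chosen after their values were seen. S100B read 11.01 in A375M knock-down cells and 10.68 in A375M control cells, a difference of 0.33, beside 0.73 for S100b in LM8. GPM6B differed by 0.29 in A375M, with 4 kept probe sets between 0.097 and 0.51, beside 0.68 for Gpm6b in LM8. NT5E differed by -0.44 in A375M and Nt5e by -0.55 in LM8, where a dim probe set differed by 0.22.

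Pigment genes outside the named set also differed within the list in A375M. OCA2, a melanosomal ion transport gene, read 7.84 in knock-down cells and 8.18 in control cells, a difference of -0.34. SLC45A2, a melanosomal transporter gene, read 5.50 in knock-down cells and 5.25 in control cells, a difference of 0.25, and TYRP1 differed by 0.029. RAB27A, the GTPase that binds SYTL2, differed by -0.35 on its brightest probe set, and its 5 probe sets ran from -0.35 to 0.013.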
